A study of Mus musculus with 15 samples.

Results

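The 47 genes described here encode the DNA replication machinery and the E2F transcription factors of mouse embryonic stem cells. They are 47 of the 37310 genes in the deposited count table, chosen by gene symbol, and where a symbol had several rows the one with the most counts was taken. The rule itself used no difference between groups, but the list of symbols was chosen with earlier results of these data known. All 47 had enough counts to be tested in every comparison. RNA was sequenced in J1 cells, a mouse embryonic stem cell line grown in fetal calf serum with leukaemia inhibitory factor (LIF). There were 15 libraries in 5 groups of 3. Taf5l-KO and Taf6l-KO cells, with Taf5l or Taf6l knocked out, were set against a common group of wild-type J1 libraries (WT-Taf). In a separate experiment cMyc-KO cells, here Myc-KO, were set against their own wild-type J1 libraries (WT-Myc). Both TAF5L and TAF6L belong to SAGA, a coactivator complex that acetylates histones at promoters, while MYC drives genes of growth and division. The labels do not say how the knockouts were made, or whether replicates were separate cultures or clones. The p-values therefore rest on the scatter of these libraries alone, and that scatter may be technical.

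Replication starts at origins. In G1 phase the origin recognition complex, CDC6 and CDT1 load the ring of MCM2 to MCM7 onto DNA, and geminin later blocks CDT1 so that no origin is loaded again. The kinase CDC7 with DBF4, and the factors MCM10, CDC45 and GINS, then turn the ring into a moving helicase. DNA polymerase alpha with primase lays down primers, polymerases epsilon and delta extend them on the clamp PCNA, which replication factor C loads, and FEN1 and DNA ligase 1 join the lagging strand. E2F proteins control the transcription of most of these genes: E2F1, E2F2 and E2F3 are mainly activators, E2F4, E2F5 and E2F6 mainly repressors, and E2F7 and E2F8 atypical repressors. Cyclin E with CDK2 drives entry into S phase. Mouse embryonic stem cells divide quickly, with a short G1 phase and much of each cycle in S phase.

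Promoter sequences are shown because several members carry the letters of the E2F site near their start. RefSeq windows (GRCm38.p6) from 250 bases before to 50 bases after the transcript start were at hand for 36 of the 47 members. The letters TTTCCCGC, TTTCGCGC, TTTGCCGC and TTTGGCGC were searched on both strands, and neighbouring matches on opposite strands can overlap. At least 1 match was present in 14 of the 36 members (38.9%), against 626 of all 27025 windows (2.32%) and 510 of the 17492 windows of protein-coding genes (2.92%). In the stretches below, each of 60 bases read 5′ to 3′ on the strand of the gene, capitals mark the E2F letters. The first 5 belong to members that were lower in each Taf knockout, and the last 2 to members called in neither.
Mcm6: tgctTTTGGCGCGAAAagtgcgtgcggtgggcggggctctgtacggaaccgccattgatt
Mcm5: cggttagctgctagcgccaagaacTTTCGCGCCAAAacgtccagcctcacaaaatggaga
Mcm7: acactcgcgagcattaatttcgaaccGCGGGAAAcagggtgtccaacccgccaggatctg
Rfc3: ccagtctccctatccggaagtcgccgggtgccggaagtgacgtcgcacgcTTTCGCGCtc
Pola1: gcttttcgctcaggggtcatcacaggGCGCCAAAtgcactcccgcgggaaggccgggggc
Gins3: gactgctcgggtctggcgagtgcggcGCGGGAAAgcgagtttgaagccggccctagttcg
E2f7: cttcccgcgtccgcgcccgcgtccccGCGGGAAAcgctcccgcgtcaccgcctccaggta

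These stretches lie at chr1:128359760-128359819 (minus strand) for Mcm6, chr8:75109332-75109391 (plus) for Mcm5, chr5:138172015-138172074 (minus) for Mcm7 and chr5:151651209-151651268 (minus) for Rfc3. The Pola1 stretch lies at chrX:93632260-93632319 (minus), that of Gins3 at chr8:95633492-95633551 (plus) and that of E2f7 at chr10:110745215-110745274 (plus). In Mcm6 and Mcm5 a match on each strand overlaps the other, which gives a run of 12 capitals. E2F letters were present in 11 of the 25 windows of members lower in Taf5l-KO (44%) and in 3 of the 11 windows of the other members (27.3%). For Taf6l-KO the shares were 11 of 26 windows (42.3%) and 3 of 10 (30%). The letters CACGTG, the E-box that MYC binds, were present in 3 of the 36 member windows (8.33%; Lig1, Pola2 and Rfc1), close to the 7.24% of all windows. CCAAT, searched on both strands, was present in 22 of the 36 (61.1%), against 37.9% of all windows. The median GC content was 61.8% for the members and 52.7% for all windows. These are matches of letters and were not tested.

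The Taf5l-KO libraries held 17139357 to 20655500 estimated counts and the Taf6l-KO libraries 17446821 to 21767884, against 14935631 to 20337365 for WT-Taf. Myc-KO libraries held 22193018 to 27650813, against 17922864 to 23869375 for WT-Myc. Levels below are CPM, a gene's share of the library's counts multiplied by 1e+06 and scaled between libraries by TMM. Each targeted gene was lower in its own knockout, with log2 fold changes of -1.02 for Taf5l in Taf5l-KO, -1.99 for Taf6l in Taf6l-KO and -1.20 for Myc in Myc-KO, and Myc itself was lower in Taf5l-KO (-0.69) and Taf6l-KO (-0.83). Replicate 3 of Myc-KO stood apart: chi-square values divided by their degrees of freedom were 36.4 and 26.3 when it was set against the other Myc-KO replicates, whose own value was 5.07. Histone genes without poly(A) tails took 1.15% to 1.55% of counts in the groups of the Taf experiment but 0.0268% in Myc-KO and 0.0297% in WT-Myc, although the labels give the same ribosomal RNA depletion for all, so the library method of the Myc experiment is uncertain. The summed level of 10 embryonic stem cell markers was 5129 to 5248 CPM in Taf5l-KO and 5061 to 5134 CPM in Taf6l-KO, against 5779 to 5861 CPM in WT-Taf, and 7403 to 7730 CPM in Myc-KO against 6921 to 7117 CPM in WT-Myc. Of these 10 markers, 6 fell and 1 rose in Taf5l-KO, and 8 fell and 0 rose in Taf6l-KO (edgeR, adjusted p under 0.05). In Myc-KO 1 fell and 4 rose. Their median log2 fold changes were -0.14, -0.19 and 0.08. Among all genes tested 33.2%, 37.2% and 34.8% were called. Of 12 markers of differentiated progeny, 11 had a row and 6 could be tested. The 11 summed to 27.2 to 30.4 CPM in Taf5l-KO and 28.02 to 30.7 CPM in Taf6l-KO, against 23.6 to 25.4 CPM in WT-Taf, and to 35.3 to 39.2 CPM in Myc-KO against 23.6 to 26.4 CPM in WT-Myc. These markers did not move together: Krt8 rose in all 3 knockouts (0.30, 0.43 and 0.89), Gata3 rose in Taf6l-KO (0.76) and Myc-KO (0.89), Pax6 rose in Taf5l-KO (0.92) and Taf6l-KO (0.88) and fell in Myc-KO (-0.46), and Gata6 fell in Taf5l-KO (-2.20) and Taf6l-KO (-2.21). Eomes was also called lower in Taf6l-KO. The feeder fibroblast markers Dcn and Lum had 0 counts in every library, and all 8 feeder markers summed to at most 13.2 CPM. The part of these shifts in the results was not tested.

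Levels of the members can be compared only per length, here as CPM per kilobase of the longest coding transcript in GENCODE M21. In WT-Taf cells the most abundant members were Pcna, the sliding clamp, at 227 ± 3.42, and Mcm3, a helicase subunit, at 219.5 ± 2.85 CPM per kilobase (SD, n = 3). These were followed by Mcm7 (140.3 ± 3.41), Mcm5 (137.0 ± 1.10) and Mcm6 (129.8 ± 0.313), of which Mcm7 and Mcm5 differ by no more than their spread. The E2F genes stood far lower. E2f4 led them at 62.7 ± 0.955 CPM per kilobase, then came E2f8 (26.0 ± 1.15) and E2f1 (13.2 ± 0.287), and E2f2 was the lowest of all 47 members at 4.70 ± 0.0508. Cyclin E was carried mainly by Ccne1 (81.3 ± 2.20 CPM per kilobase), with Ccne2 at 5.202 ± 0.442, close to E2f2. The order depends on the lengths used. On the authors' deposited FPKM values, which imply other lengths, Mcm7 (2219) stood above Pcna (1634) and Mcm3 (252) in WT-Taf. There Gins3 (6.86) and Pole2 (19.2) stood below E2f2 (24.7). In WT-Myc cells Mcm3 (294 ± 9.13), Pcna (216 ± 9.11) and Mcm7 (175.2 ± 4.31) led, and the lowest were Ccne2 (2.95 ± 0.217) and E2f2 (3.78 ± 0.155).

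Taf5l-KO cells had less RNA of most replication genes than WT-Taf cells, by small amounts. Of the 47 members, 32 fell (68.1%) and 0 rose at a Benjamini-Hochberg adjusted p under 0.05 in edgeR's quasi-likelihood test. Among all 15743 genes tested, 33.2% were called, 15.9% as lower. The falls ran from 7.44% to 36.9%, so that no member changed 2-fold. All 6 MCM genes and all 5 licensing genes fell, as did 6 of 8 polymerase and primase genes and 4 of 8 E2F genes. The median log2 fold change was -0.17 over the members and 0.00 over all genes tested. Over all genes, groups did not overlap in 44.7%. Among the members every Taf5l-KO library lay below every WT-Taf library in 36 genes (22% of all genes) and above in 2 (22.7%). With a minimum change of 1.2-fold built into the test, 4 members fell: Pola1, E2f2, Gins2 and Mcm6. Among all 15743 genes 1346 were called at that minimum, 560 as lower.

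Taf6l-KO cells also had less RNA of most replication genes. Against the same WT-Taf libraries 32 of the 47 members fell and 0 rose, where 37.2% of all 15743 genes were called and 18.2% were lower. The falls ran from 6.55% to 43.9%. The 6 MCM genes, 7 of 8 polymerase and primase genes, 4 of 5 licensing genes and 5 of 8 E2F genes fell. The median log2 fold change was -0.17 over the members and 0.02 over all genes. In 37 members every Taf6l-KO library lay below every WT-Taf library (23.5% of all genes), and in 0 above (25.4%). At a minimum of 1.2-fold 9 members fell: Pola1, E2f2, E2f8, Gins2, Pcna, Mcm6, E2f4, Pola2 and Cdt1. Among all 15743 genes 1675 were called at that minimum, 764 as lower. The smaller falls hang on the scaling: with library totals in place of TMM 20 members fell and 1 rose, and rises then made up 69% of all genes called, against 51.2% with TMM.

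Myc-KO cells showed no common shift of the replication genes. Against WT-Myc 7 members fell and 12 rose, a share of 40.4% in a comparison where 34.8% of all 14563 genes were called, 19.5% as lower and 15.2% as higher. The genes that fell were Mcm6, Cdt1, Pold2, Pole, E2f2, E2f3 and Ccne1. Those that rose were Gmnn, Gins2, Gins4, Cdc45, Cdc7, Pola2, Prim1, Rfc3, Rfc5, Lig1, Rpa3 and E2f7. The median log2 fold change was 0.05 over the members. Groups did not overlap in 9 members that were lower (26.7% of all genes) and 19 that were higher (22.9%). The counts rest on single libraries: without replicate 3 of Myc-KO 9 members fell and 14 rose, and without replicate 2 of WT-Myc 6 fell and 4 rose. With replicate number added to the fit as a block, 6 fell and 3 rose (Gmnn, Gins4 and Pola2). Among all 14563 genes 3139 were then called, 1923 as lower and 1216 as higher. At a minimum of 1.2-fold 4 members fell, Ccne1, E2f2, Cdt1 and Pold2, and 0 rose in the same test with edgeR. Among all 14563 genes 2418 were called at that minimum, 1564 as lower and 854 as higher.

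**Figure D1:**
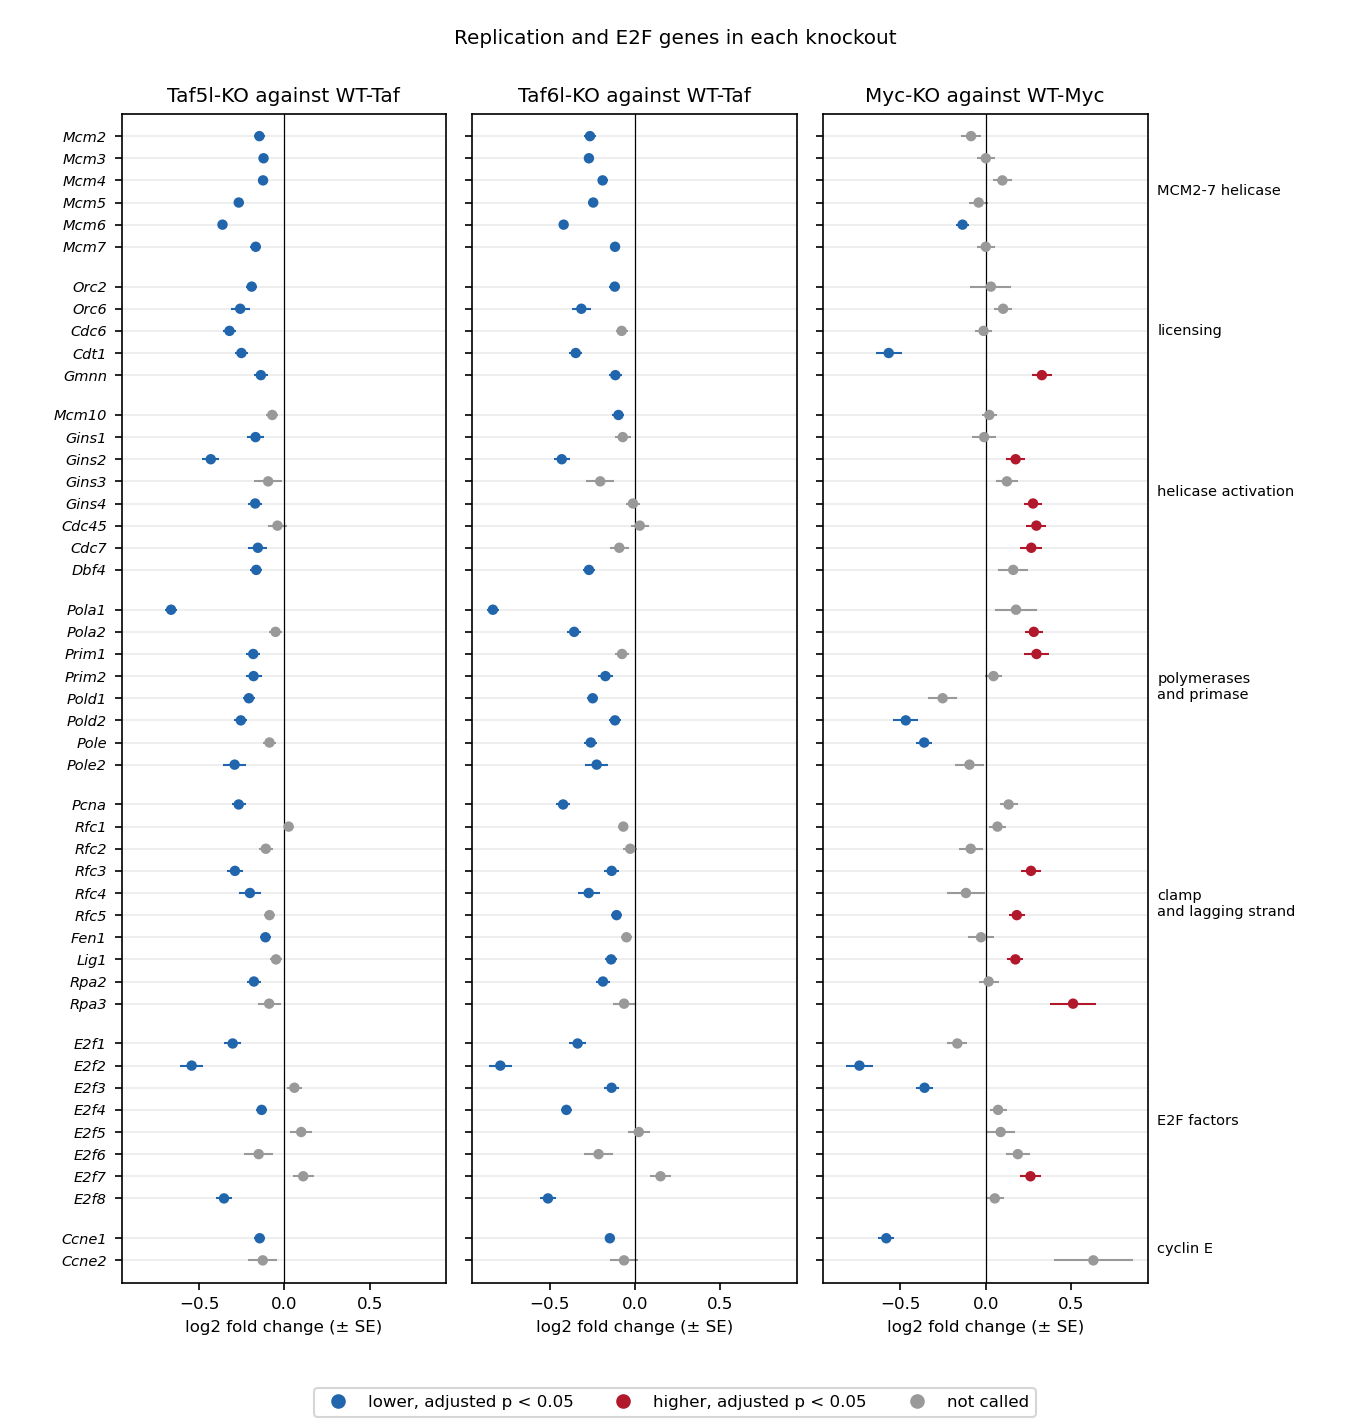
Log2 fold change (± SE, horizontal axis) of each of the 47 members, grouped by role, in Taf5l-KO and Taf6l-KO against WT-Taf and in Myc-KO against WT-Myc (3 libraries a group). Blue points are lower and red points higher at an adjusted p under 0.05 in edgeR: 32 blue points stand in each Taf panel, against 7 blue and 12 red points in the Myc panel.

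The MCM genes encode the ring that unwinds DNA. Mcm6 had 437, 433 and 449 CPM in Taf5l-KO and 418, 426 and 425 CPM in Taf6l-KO, against 566, 566 and 564 CPM in WT-Taf. The groups were far apart and the replicates close, with log2 fold changes of -0.36 ± 0.028 (SE) in Taf5l-KO and -0.42 ± 0.028 in Taf6l-KO (edgeR adjusted p = 2.73e-07 and 4.94e-08). Mcm6 had 667, 663 and 672 CPM in Myc-KO, against 734, 745 and 722 CPM in WT-Myc, a fall of 0.14 on the log2 scale. This was the smallest fall called in Myc-KO, and it was lost in DESeq2 (-0.11, adjusted p = 0.0861), with library totals and without any single library other than replicate 3 of Myc-KO. Mcm5 had 391, 382 and 381 CPM in Taf5l-KO and 381, 397 and 394 CPM in Taf6l-KO, against 466, 459 and 464 CPM in WT-Taf. Its log2 fold changes were -0.27 and -0.25, and no library of either knockout reached the WT-Taf range. Mcm3 had 612, 608 and 612 CPM in Taf5l-KO and 549, 544 and 561 CPM in Taf6l-KO, against 661, 659 and 675 CPM in WT-Taf. The 3 groups did not overlap, and the fall was larger in Taf6l-KO (-0.27) than in Taf5l-KO (-0.12), with a difference of -0.15 ± 0.028 (adjusted p = 0.00196). The other members of the ring, Mcm2, Mcm4 and Mcm7, changed by -0.17 to -0.13 in Taf5l-KO and by -0.27 to -0.12 in Taf6l-KO. In Myc-KO the 5 MCM genes other than Mcm6 stood between -0.09 and 0.10 and were not called.

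Among the licensing genes, Cdt1, the loader of the MCM ring, was lower in all 3 knockouts. It had 121, 119 and 119 CPM in Taf5l-KO and 108, 116 and 113 CPM in Taf6l-KO, against 148, 142 and 138 CPM in WT-Taf. Its levels were 132, 130.0 and 109 CPM in Myc-KO, against 179, 184 and 187 CPM in WT-Myc. The knockout libraries lay below their wild type in each case, with log2 fold changes of -0.25, -0.35 and -0.57 ± 0.077 (adjusted p = 0.00114 for Myc-KO). Gmnn, the gene of geminin, the inhibitor of CDT1, had 73.9, 73.0 and 68.7 CPM in Myc-KO, against 58.4, 54.6 and 58.7 CPM in WT-Myc. The groups did not overlap and the log2 fold change was 0.33 ± 0.058 (adjusted p = 0.00369). With Taf5l or Taf6l lost, Gmnn had 52.3, 52.6 and 52.1 CPM in Taf5l-KO and 51.5, 54.2 and 53.8 CPM in Taf6l-KO, against 59.8, 56.4 and 56.5 CPM in WT-Taf. These falls were small (-0.14 and -0.12), and both were lost in DESeq2 and without replicate 1 of WT-Taf. The call in Taf6l-KO was kept in only 7 of 17 alternatives. It was also lost with library totals and without replicate 1 or 3 of Taf6l-KO. Cdc6, an ATPase of ring loading, had 75.3, 79.0 and 75.3 CPM in Taf5l-KO and 87.1, 92.7 and 92.3 CPM in Taf6l-KO, against 94.1, 96.4 and 96.9 CPM in WT-Taf. It fell in Taf5l-KO (-0.32) and was not called in Taf6l-KO (-0.08, adjusted p = 0.102). Cdc6 lies on chromosome 11, where the median of all genes tested was -0.06 in Taf5l-KO and 0.16 in Taf6l-KO, and the part of this shift in the Cdc6 values was not tested. Of the origin recognition genes, Orc6 fell by 0.26 and 0.32 on the log2 scale and Orc2 by 0.19 and 0.12, and neither was called in Myc-KO (0.10 and 0.03).

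Of the 8 genes that activate the helicase, 5 fell in Taf5l-KO, 3 fell in Taf6l-KO and 4 rose in Myc-KO. Gins2, a subunit of the GINS complex, had 29.0, 29.3 and 29.3 CPM in Taf5l-KO and 29.8, 28.9 and 29.1 CPM in Taf6l-KO, against 41.2, 39.97 and 36.7 CPM in WT-Taf. Its log2 fold change was -0.43 in each knockout (± 0.049 and ± 0.048), among the largest falls of the members, with no overlap of groups. In the Myc experiment it had 52.3, 53.5 and 48.4 CPM in Myc-KO, against 44.4, 45.8 and 46.4 CPM in WT-Myc, a rise of 0.17 that was just called (adjusted p = 0.0487). It was lost in DESeq2 and without any single library other than replicate 3 of Myc-KO. Gins4, another GINS subunit, had 83.7, 88.7 and 87.7 CPM in Myc-KO, against 68.6, 71.2 and 74.7 CPM in WT-Myc, and rose by 0.28 ± 0.056 on the log2 scale. The Taf libraries gave Gins4 levels of 60.6, 63.8 and 60.8 CPM in Taf5l-KO and 65.9, 71.2 and 70.0 CPM in Taf6l-KO, against 68.5, 71.3 and 68.7 CPM in WT-Taf. The Taf5l-KO libraries stood below WT-Taf (-0.17), and those of Taf6l-KO overlapped it (-0.01, adjusted p = 0.833). Cdc45, which joins GINS and the ring, had 75.0, 72.7 and 69.2 CPM in Myc-KO, against 56.0, 59.7 and 60.8 CPM in WT-Myc. It rose by 0.30 ± 0.058 there, and at 43.2, 41.8 and 39.3 CPM in Taf5l-KO and 42.8, 45.5 and 42.1 CPM in Taf6l-KO it overlapped the 39.9, 42.8 and 45.4 CPM of WT-Taf. Cdc7, the kinase, had 24.8, 24.3 and 26.3 CPM in Myc-KO, against 21.02, 20.1 and 21.6 CPM in WT-Myc (0.27), a call lost without replicate 1 or 2 of WT-Myc. In Taf5l-KO it had 20.96, 20.3 and 19.9 CPM, in Taf6l-KO 20.2, 21.8 and 21.9 CPM, against 21.9, 23.2 and 23.1 CPM in WT-Taf. That fall in Taf5l-KO (-0.16, adjusted p = 0.0456) sat at the threshold and was lost in DESeq2. Its partner Dbf4 fell by 0.16 in Taf5l-KO and 0.27 in Taf6l-KO and was not called in Myc-KO (0.16, adjusted p = 0.198). Mcm10 and Gins1 were each called in 1 Taf knockout (-0.10 in Taf6l-KO and -0.17 in Taf5l-KO), and Gins3 in no knockout. The calls of Mcm10 and Gins1 were lost in DESeq2 and without some single libraries.

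Pola1, the catalytic subunit of polymerase alpha, showed the largest fall of all 47 members in both Taf comparisons. It had 143, 149 and 156 CPM in Taf5l-KO and 133, 131 and 134 CPM in Taf6l-KO, against 230.4, 241 and 238 CPM in WT-Taf. These are falls of 36.9% and 43.9%, with log2 fold changes of -0.66 ± 0.035 and -0.83 ± 0.035 (adjusted p = 7.17e-09 and 7.66e-10). In Myc-KO its levels were 148, 151 and 199 CPM, against 160.2, 149.97 and 130.3 CPM in WT-Myc. Replicate 3 of Myc-KO was high and the other libraries overlapped WT-Myc (0.18 ± 0.125, adjusted p = 0.313). Pola1 is the only member on the X chromosome, where the median log2 fold change of all genes tested was -0.13 in Taf5l-KO and -0.10 in Taf6l-KO, and the part of that shift in its fall was not tested. Pola2, its accessory subunit, had 59.2, 62.7 and 61.9 CPM in Taf6l-KO, against 76.6, 81.5 and 77.1 CPM in WT-Taf, a fall of 0.36 on the log2 scale. At 77.5, 76.7 and 72.9 CPM in Taf5l-KO it overlapped WT-Taf (-0.05, adjusted p = 0.348). Pola2 had 127, 124 and 116 CPM in Myc-KO, against 97.1, 102 and 103 CPM in WT-Myc, and rose by 0.28 ± 0.054 without overlap. Of the primase genes, Prim1 had 84.0, 86.5 and 94.5 CPM in Myc-KO, against 76.8, 71.7 and 67.4 CPM in WT-Myc (0.30 ± 0.071), a call lost without replicate 2 or 3 of WT-Myc. Prim1 had 43.9, 46.6 and 47.02 CPM in Taf5l-KO and 49.4, 50.2 and 48.6 CPM in Taf6l-KO, against 53.6, 51.6 and 51.0 CPM in WT-Taf. Both knockouts lay below WT-Taf, and the difference was called in Taf5l-KO (-0.18) and not in Taf6l-KO (-0.08, adjusted p = 0.156). Prim2 fell by 0.18 in Taf5l-KO and 0.17 in Taf6l-KO and was not called in Myc-KO (0.05).

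Of the polymerases that extend the strands, Pold2 and Pole fell in Myc-KO. Pold2, a subunit of polymerase delta, had 115, 109.7 and 97.1 CPM in Myc-KO, against 143, 148 and 155 CPM in WT-Myc. The groups were well apart, with a log2 fold change of -0.47 ± 0.072 (adjusted p = 0.002). Pold2 had 76.2, 75.2 and 74.9 CPM in Taf5l-KO and 80.8, 86.8 and 81.6 CPM in Taf6l-KO, against 92.9, 86.9 and 90.4 CPM in WT-Taf, falls of 0.26 and 0.12. The smaller of these was lost with library totals, in DESeq2 and without some single libraries. Pold2 also lies on chromosome 11. Pole, the catalytic subunit of polymerase epsilon, had 162, 164 and 164 CPM in Myc-KO, against 201, 212 and 217 CPM in WT-Myc (-0.36 ± 0.046). In the Taf experiment it had 123, 114 and 116 CPM in Taf5l-KO and 105, 108 and 102 CPM in Taf6l-KO, against 129, 122 and 126 CPM in WT-Taf. It was lower in Taf6l-KO (-0.26) and overlapped WT-Taf in Taf5l-KO (-0.09, adjusted p = 0.0933). Pold1, the catalytic subunit of polymerase delta, fell by 0.21 in Taf5l-KO and 0.25 in Taf6l-KO and just missed the threshold in Myc-KO (-0.25 ± 0.085, adjusted p = 0.051). Pole2 fell by 0.29 and 0.23 in the Taf knockouts and stood at -0.10 in Myc-KO without a call. Its call in Taf6l-KO was lost in DESeq2 and without some single libraries.

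Of the 10 genes for the clamp, its loader and the lagging strand, 5 fell in Taf5l-KO, 6 fell in Taf6l-KO and 4 rose in Myc-KO. Pcna, the clamp, had 299.7, 291 and 268 CPM in Taf5l-KO and 251.4, 267 and 253 CPM in Taf6l-KO, against 339, 349 and 346 CPM in WT-Taf. All knockout libraries lay below WT-Taf, with log2 fold changes of -0.27 ± 0.040 and -0.42 ± 0.040. In the Myc experiment Pcna had 347, 354 and 379 CPM in Myc-KO, against 344, 318 and 322 CPM in WT-Myc, a difference of 0.13 that was not called (adjusted p = 0.089). Rfc3, a clamp loader subunit, had 32.9, 32.1 and 30.7 CPM in Taf5l-KO and 34.5, 36.6 and 35.4 CPM in Taf6l-KO, against 39.2, 39.3 and 38.4 CPM in WT-Taf (-0.29 and -0.14). In the Myc experiment it had 49.6, 49.5 and 46.97 CPM in Myc-KO, against 40.2, 38.8 and 42.5 CPM in WT-Myc, a rise of 0.27 ± 0.057. Rfc3 was thus lower in each Taf knockout and higher in Myc-KO, with no overlap in any of the comparisons. Its call in Taf6l-KO was kept in only 7 of 17 alternatives. That call was lost in DESeq2, with library totals, and without replicate 1 or 3 of Taf6l-KO or replicate 1 or 2 of WT-Taf. Rfc5, another loader subunit, had 154, 164 and 165 CPM in Taf6l-KO, against 176, 171 and 173 CPM in WT-Taf (-0.11), and 217, 216 and 207 CPM in Myc-KO, against 182, 189 and 193 CPM in WT-Myc (0.18). In Taf5l-KO it had 165, 162 and 162 CPM and was not called (-0.09, adjusted p = 0.0574). Lig1, the ligase of the lagging strand, had 320.0, 321 and 305 CPM in Myc-KO, against 274, 274 and 290.1 CPM in WT-Myc (0.17). It had 173, 163 and 172 CPM in Taf6l-KO, against 184, 194 and 181 CPM in WT-Taf (-0.14), and 184, 179 and 178 CPM in Taf5l-KO, which overlapped WT-Taf. The rises of Lig1 and Rfc5 in Myc-KO were each lost without replicate 1 or 2 of Myc-KO or replicate 1 or 2 of WT-Myc, and their falls in Taf6l-KO were lost with library totals. The rise of Rfc3 in Myc-KO was lost without replicate 2 of WT-Myc. The single-strand binding gene Rpa3 rose in Myc-KO (0.51 ± 0.136), where replicate 3 was highest at 45.8 CPM, against 34.3 and 35.7 CPM in the other Myc-KO replicates and 23.8 to 31.4 CPM in WT-Myc. This call was lost without replicate 2 or 3 of WT-Myc. Rpa2 and Rfc4 fell in each Taf knockout (-0.18 and -0.20 in Taf5l-KO, -0.19 and -0.27 in Taf6l-KO), Fen1 fell in Taf5l-KO (-0.11), and Rfc1 and Rfc2 were called in no knockout. In Taf5l-KO the calls of Fen1 and Rfc4 were lost without some single libraries, and that of Fen1 also in DESeq2.

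Among the E2F activators, E2f2 moved most in every knockout. It had 15.7, 14.02 and 16.2 CPM in Taf5l-KO and 13.3, 11.97 and 13.2 CPM in Taf6l-KO, against 21.997, 22.4 and 22.4 CPM in WT-Taf. Its levels were 10.5, 11.5 and 10.2 CPM in Myc-KO, against 18.7, 17.5 and 17.5 CPM in WT-Myc. No knockout library reached its wild-type range. The log2 fold changes were -0.54 ± 0.068 in Taf5l-KO, -0.79 ± 0.068 in Taf6l-KO and -0.74 ± 0.080 in Myc-KO (adjusted p = 2.79e-05, 6.15e-07 and 0.000399). E2f1 had 30.8, 29.0 and 28.4 CPM in Taf5l-KO and 27.6, 28.3 and 30.2 CPM in Taf6l-KO, against 36.5, 36.8 and 35.3 CPM in WT-Taf, falls of 0.30 and 0.34. E2f1 had 38.1, 37.7 and 35.4 CPM in Myc-KO, against 39.7, 42.7 and 42.4 CPM in WT-Myc, lower in every library but short of the threshold (-0.17 ± 0.058, adjusted p = 0.0579). E2f3 had 49.0, 49.3 and 49.9 CPM in Myc-KO, against 65.2, 62.7 and 62.3 CPM in WT-Myc, with tight replicates and a log2 fold change of -0.36 ± 0.049. In the Taf experiment E2f3 had 53.9, 58.0 and 57.3 CPM in Taf5l-KO and 51.3, 47.8 and 48.5 CPM in Taf6l-KO, against 54.6, 54.8 and 53.1 CPM in WT-Taf. It was not called in Taf5l-KO (0.06) and fell slightly in Taf6l-KO (-0.14, adjusted p = 0.0192). That call was lost in DESeq2, with library totals, and without replicate 2 or 3 of Taf6l-KO or replicate 1 or 2 of WT-Taf. On the authors' deposited FPKM values the sign of E2f3 turned in both comparisons, with differences in log2(FPKM + 1) of 0.54 in Taf6l-KO and 0.03 in Myc-KO (limma adjusted p = 0.401 and 0.949).

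Of the E2F repressors, E2f4 had 117, 115 and 110.4 CPM in Taf5l-KO and 91.8, 96.1 and 95.9 CPM in Taf6l-KO, against 124, 127 and 124 CPM in WT-Taf. The groups did not overlap, and the fall in Taf6l-KO (-0.40 ± 0.034) was larger than in Taf5l-KO (-0.13 ± 0.034), with a difference of -0.27 ± 0.034 (adjusted p = 0.000123). E2f4 was not called in Myc-KO, at 153, 155 and 143 CPM, against 140.5, 143 and 146 CPM in WT-Myc. E2f5 had 21.4, 21.9 and 21.4 CPM in Taf5l-KO and 18.4, 21.5 and 21.7 CPM in Taf6l-KO, against 20.1, 20.04 and 20.4 CPM in WT-Taf, and 16.6, 17.2 and 19.4 CPM in Myc-KO, against 17.7, 16.4 and 16.1 CPM in WT-Myc. E2f6 had 13.1, 12.9 and 13.4 CPM in Taf5l-KO and 10.9, 12.9 and 13.9 CPM in Taf6l-KO, against 14.8, 14.9 and 13.8 CPM in WT-Taf, and 21.01, 21.1 and 23.2 CPM in Myc-KO, against 19.7, 19.2 and 18.5 CPM in WT-Myc. Neither gene was called in any knockout. E2f8, an atypical repressor, had 74.3, 74.1 and 76.2 CPM in Taf5l-KO and 71.0, 67.2 and 63.4 CPM in Taf6l-KO, against 92.3, 94.8 and 101 CPM in WT-Taf. It fell by 0.35 and 0.51 on the log2 scale, without overlap, and was not called in Myc-KO, at 109, 115 and 115 CPM, against 105, 115 and 106 CPM in WT-Myc. E2f7, the other atypical repressor, had 53.8, 54.1 and 59.6 CPM in Myc-KO, against 47.6, 46.3 and 45.9 CPM in WT-Myc, and rose by 0.26 ± 0.059, a call lost without replicate 2 of WT-Myc. In the Taf experiment it had 34.9, 31.7 and 32.5 CPM in Taf5l-KO and 32.8, 34.1 and 34.7 CPM in Taf6l-KO, against 30.2, 33.2 and 27.9 CPM in WT-Taf. E2f7 had the highest log2 fold change of all members in each Taf knockout (0.11 and 0.15), and neither passed the threshold.

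Of the cyclin E genes, Ccne1 fell in all 3 knockouts. It had 146, 142 and 141 CPM in Myc-KO, against 204, 219.9 and 218 CPM in WT-Myc. This clear gap gave the smallest p of any member in Myc-KO, with a log2 fold change of -0.58 ± 0.048 (adjusted p = 0.000112). In the Taf experiment Ccne1 had 145, 148 and 147 CPM in Taf5l-KO and 144, 148 and 148 CPM in Taf6l-KO, against 165, 165 and 157 CPM in WT-Taf. It fell by 0.15 in each, and the call in Taf6l-KO was lost with library totals. Ccne2 had 14.2, 14.7 and 14.2 CPM in Taf5l-KO and 14.1, 14.2 and 16.7 CPM in Taf6l-KO, against 14.7, 17.2 and 15.1 CPM in WT-Taf, with no call. In the Myc experiment it had 11.1, 10.5 and 19.3 CPM in Myc-KO, against 9.48, 8.18 and 8.92 CPM in WT-Myc. All Myc-KO libraries were higher, but replicate 3 stood far above the others and the difference was not called (0.63 ± 0.231, adjusted p = 0.0685).

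**Figure D2:**
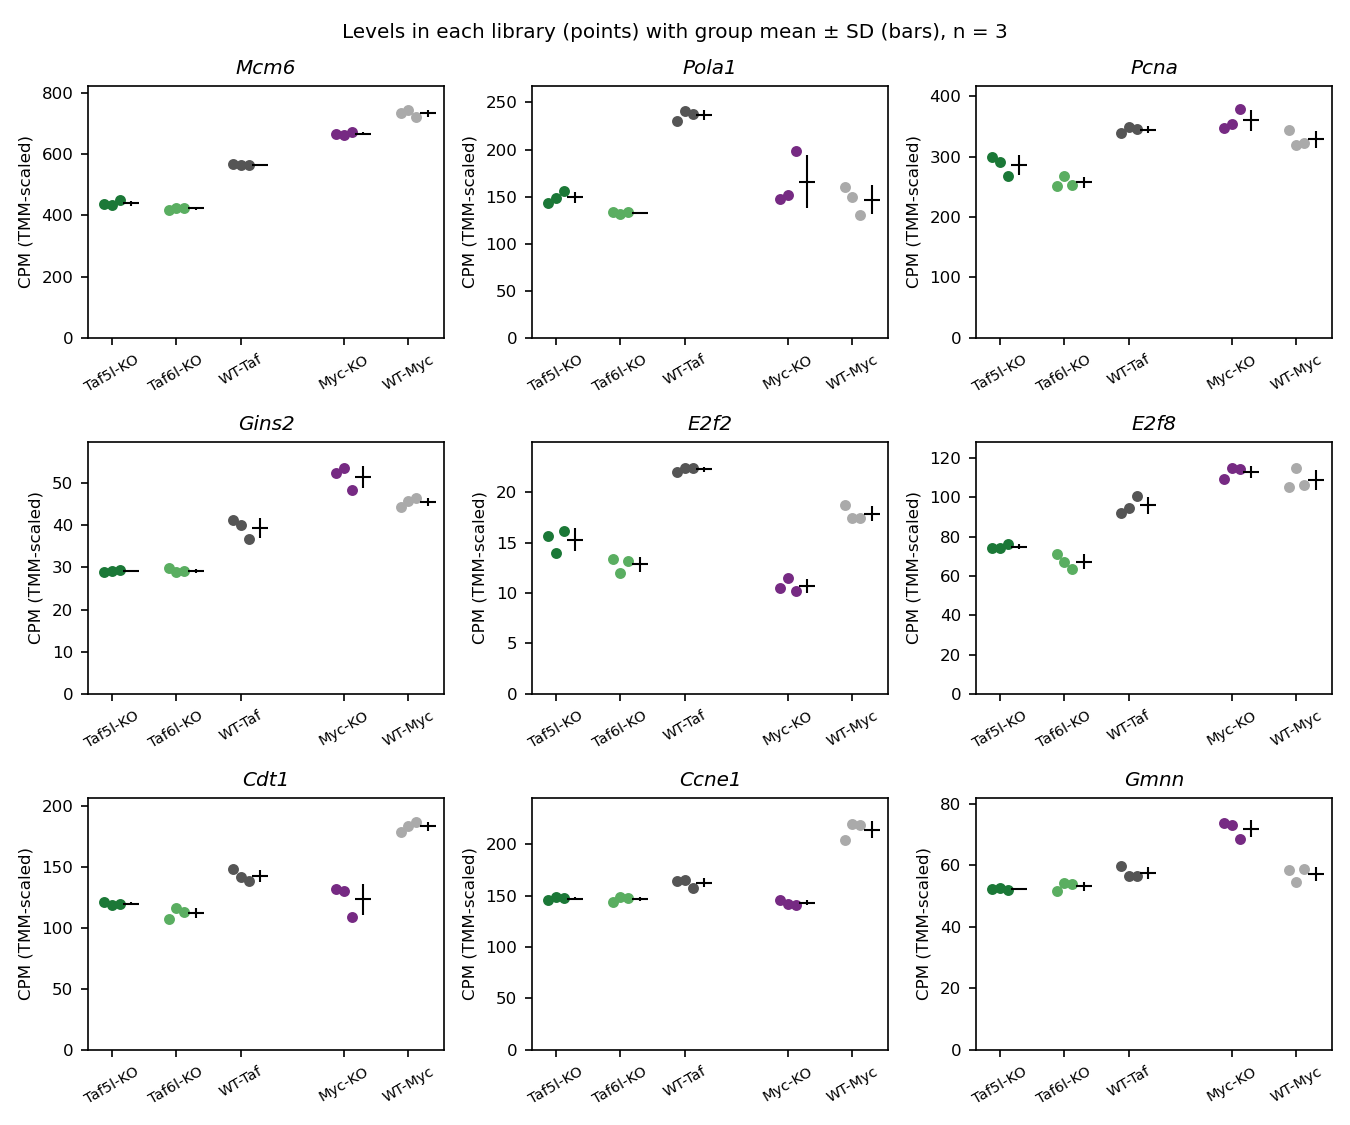
TMM-scaled CPM (vertical axis, from 0) of 9 members in each of the 15 libraries (points), with the group mean ± SD beside them (n = 3). The members shown were picked from those called lower in both Taf knockouts, and in every panel the Taf knockout libraries lie below WT-Taf. Mcm6, E2f2, Cdt1 and Ccne1 also lie below WT-Myc in Myc-KO, where Gins2, Pcna and Gmnn lie above it.

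The Taf knockouts were also set directly against each other. In Taf6l-KO 12 of the 47 members were lower and 4 were higher than in Taf5l-KO, where 18.7% of all genes were called, 10.1% as lower and 8.55% as higher. The larger differences were in Pola2 (-0.31 ± 0.040), E2f4 (-0.27), E2f2 (-0.25) and E2f3 (-0.20) among the lower, and in Cdc6 (0.24 ± 0.036), Gins4 (0.16), Rfc3 (0.15) and Pold2 (0.14) among the higher. Pcna, Pole, Pola1, E2f8, Mcm3, Mcm2, Dbf4 and Rfc1 were lower by 0.09 to 0.17 on the log2 scale. These small differences rest on the scaling. With library totals 2 members were lower and 12 higher, and rises made up 83.1% of all genes called, against 45.8% with TMM. Single libraries also decided them: 9 members were called without replicate 2 of Taf5l-KO, replicate 2 of Taf6l-KO or replicate 3 of Taf6l-KO, and 10 without replicate 3 of Taf5l-KO. The calls of Pola2, E2f4 and Cdc6 held in every alternative other than the 1.2-fold minimum. Under that minimum edgeR called 0 members and 178 of all 15743 genes.

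Because the experiments do not share libraries, the effect of the Myc knockout could be set against the mean effect of the Taf knockouts in a single fit of all 15 libraries. The effect of Myc-KO was higher in 30 members and lower in 3, where 35.3% of all 16286 genes were called, 18.4% as higher and 16.9% as lower. This fit shares its estimate of scatter between experiments whose coefficients of variation were 4.23% (Taf) and 10.2% (Myc). Myc-KO against WT-Myc had 26 called members in a fit of all 15 libraries, against 19 in its own fit. Over all genes the calls were 6767 and 5064. The median difference was 0.26 on the log2 scale over the members and 0.02 over all genes. Pola1 differed most (0.97 ± 0.112), followed by Ccne2 (0.77), Gins2 (0.65), Rpa3 (0.63), E2f8 (0.53), Pola2 (0.53), Pcna (0.52) and Rfc3 (0.52). Ccne2 was called in no single knockout, and its replicate 3 of Myc-KO stood far above the other Myc-KO libraries. The 3 members with a lower effect in Myc-KO were Ccne1 (-0.40 ± 0.053), E2f3 (-0.28) and Pold2 (-0.24). E2f2, which fell in all 3 knockouts, had a difference of -0.03 ± 0.094 (adjusted p = 0.83), and that of Cdt1 was -0.23 ± 0.086 (adjusted p = 0.0522). Of the 12 members higher in Myc-KO, 6 were lower in Taf5l-KO (Gmnn, Gins2, Gins4, Cdc7, Prim1 and Rfc3) and 6 were lower in Taf6l-KO (Gmnn, Gins2, Pola2, Rfc3, Rfc5 and Lig1). Of the 7 lower in Myc-KO, 5 were also lower in Taf5l-KO and 7 in Taf6l-KO. Since 68.1% of all members were lower in each Taf knockout, these counts are read only as a description. Across the 47 members the log2 fold changes of Myc-KO correlated with those of Taf5l-KO at r = 0.242 and of Taf6l-KO at r = 0.332, against 0.109 and 0.038 over 14142 genes. The points share their libraries and genes are not independent replicates, so no p is given. The experiments differ in the histone share given above, and this difference cannot be told apart from the knockouts compared here.

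**Figure D3:**
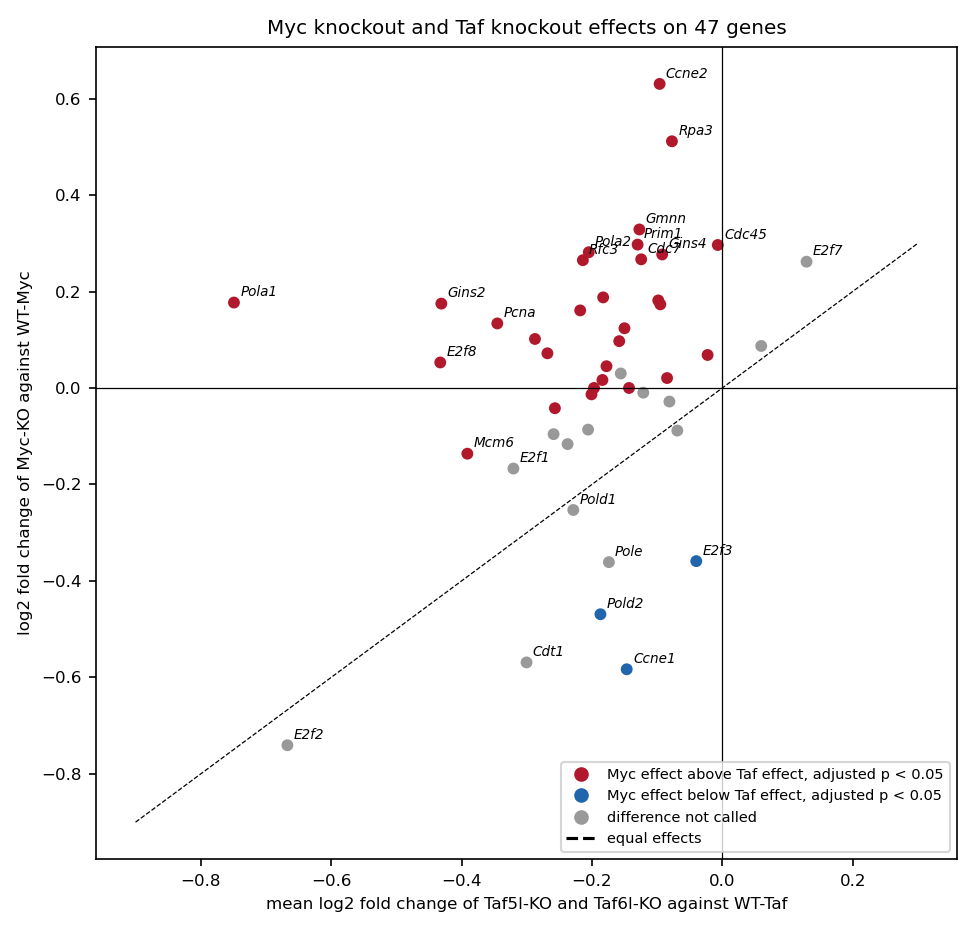
Log2 fold change of each member in Myc-KO against WT-Myc (vertical axis) over its mean log2 fold change in Taf5l-KO and Taf6l-KO against WT-Taf (horizontal axis), with a dashed line where they are equal. Most of the 30 red members, with a higher effect in Myc-KO, lie in the upper left, E2f2 lies near the line, and Ccne1, Pold2 and E2f3 (blue) lie below it.

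Summed over all 47 members, the level was 5568 to 5586 CPM in Taf5l-KO and 5302 to 5444 CPM in Taf6l-KO, against 6373 to 6387 CPM in WT-Taf. The sum lay below WT-Taf in every knockout library. It was 7618 to 7741 CPM in Myc-KO, against 7699 to 7770 CPM in WT-Myc, and these ranges overlapped. The classes parted in the Myc experiment. Helicase activation genes summed to 672 to 702 CPM in Myc-KO, against 619.7 to 623 CPM in WT-Myc, and clamp and lagging strand genes to 1552 to 1564 CPM, against 1424 to 1459 CPM. Licensing genes summed to 589 to 617 CPM in Myc-KO, against 620.1 to 654 CPM in WT-Myc. Polymerase and primase genes summed to 898 to 917 CPM in Myc-KO, against 956 to 967 CPM in WT-Myc, and cyclin E to 153 to 161 CPM, against 214 to 228 CPM. For 28 genes of G2 phase and mitosis the sums of the Taf experiment overlapped. They were 4450 to 4553 CPM in Taf5l-KO and 4448 to 4485 CPM in Taf6l-KO, against 4455 to 4538 CPM in WT-Taf. Some of these genes, Top2a among them, lie on chromosome 11. The median of all genes tested there was -0.06 in Taf5l-KO and 0.16 in Taf6l-KO. The part of this shift in the sums was not tested. In bulk RNA, fewer cells in S phase and less RNA per cell cannot be told apart.

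**Figure D4:**
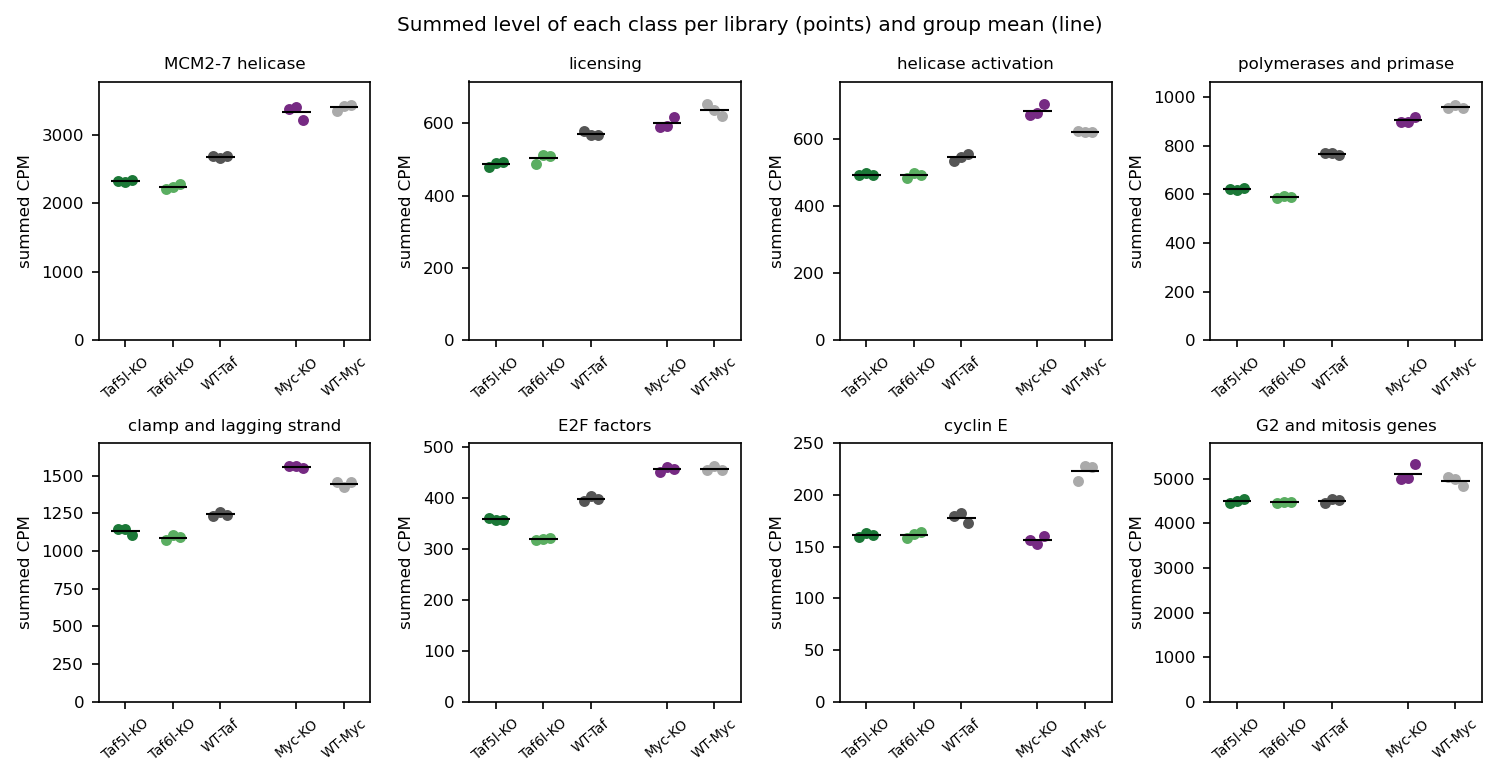
Summed TMM-scaled CPM (vertical axis, from 0) of each class of members, and of 28 genes of G2 phase and mitosis, in each library (points) with the group mean (line, n = 3). All 7 classes lie below WT-Taf in both Taf knockouts, the G2 and mitosis genes overlap there, and Myc-KO lies above WT-Myc for helicase activation and clamp genes and below it for licensing genes, polymerases and cyclin E.

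Other genes of the same pathways were counted as lists, beside the 33.2%, 37.2% and 34.8% of all genes called in Taf5l-KO, Taf6l-KO and Myc-KO. Of 34 further replication genes that could be tested, 13 fell and 2 rose in Taf5l-KO, 17 fell and 2 rose in Taf6l-KO, and 5 fell and 4 rose in Myc-KO, which is a smaller share than that of all genes. Rnaseh2a, a subunit of the nuclease that removes RNA from DNA, fell by 0.34 in Taf5l-KO and 0.52 in Taf6l-KO, and Dtl, the adaptor of CDT1 degradation, by 0.28 and 0.24. In Myc-KO Rnaseh2b (-0.97), Wdhd1 (-0.80), Mcm9 (-0.75) and Dna2 (-0.56) fell. The median log2 fold changes of this list were -0.12, -0.13 and 0.02. Among 11 E2F partners and pocket proteins, 3 fell and 3 rose in each Taf knockout and 2 fell and 2 rose in Myc-KO, the last close to the share of all genes. Mybl2, a cofactor of the late cell cycle, fell by 0.52 in Taf5l-KO and 0.71 in Taf6l-KO. Rb1, the retinoblastoma gene that holds E2F back, rose by 0.29 and 0.52 in these knockouts and fell by 0.54 in Myc-KO. Rnaseh2b, Wdhd1 and Rb1 lie on chromosome 14, where the median of all genes tested was -0.32 in Myc-KO. On that chromosome 237 of 483 genes were lower and 34 higher. The part of this shift in the falls of the 3 genes was not tested. Of 9 genes of deoxynucleotide supply, 5 fell in Taf5l-KO with 0 rising, 4 fell and 1 rose in Taf6l-KO, and 2 fell and 4 rose in Myc-KO. Rrm2, a subunit of ribonucleotide reductase, fell in all 3 (-0.32, -0.38 and -0.29).

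Of 17 tested genes for kinases, inhibitors and other cyclins of the G1 to S step, 7 fell and 4 rose in Taf5l-KO, 7 fell and 5 rose in Taf6l-KO, and 7 fell and 3 rose in Myc-KO. Ccnd2, the gene of cyclin D2, fell by 1.05 in Taf5l-KO, 0.77 in Taf6l-KO and 1.02 in Myc-KO. Cdkn2a, which encodes a cyclin D kinase inhibitor, rose by 1.79, 1.57 and 0.58. Other inhibitor genes of this list went the other way in Myc-KO, where Cdkn1c and Cdkn1a were called lower. Of the 28 genes of G2 phase and mitosis, 7 fell and 10 rose in Taf5l-KO, 7 fell and 8 rose in Taf6l-KO, and 3 fell and 9 rose in Myc-KO. Cenpf, a kinetochore protein gene, rose by 0.33 and 0.34 in the Taf knockouts and Cdc25b, a phosphatase gene of mitotic entry, by 0.63 in Myc-KO. Top2a stands in both the further replication list and the mitosis list.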

How the data were processed

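RNA from J1 cells was depleted of ribosomal RNA and sequenced with a directional kit, per the labels' protocols. Per the submitters' processing notes, mm9, DESeq2 1.14.1 and Salmon 0.8.2 were used, without a stated role for each. Deposited by the authors were estimated counts for each gene and FPKM values. Estimated counts need not be whole, and they were rounded here only for DESeq2. The FPKM values were used only as an alternative because the gene lengths they imply fall below annotated transcripts. The deposited normalized table was not used, and 15 TPM columns were not assigned to samples. The members and the other gene lists were chosen with earlier results of these data known.

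edgeR 4.0.16 (R 4.3.3) was run on the counts with filterByExpr, TMM scaling and the quasi-likelihood test, with Benjamini-Hochberg adjustment over all genes tested and calls made below 0.05. Taf samples (9 libraries) and Myc samples (6 libraries) were fitted separately, and the difference of effects used all 15. The standard error is the log2 fold change divided by the root of the F statistic. The script was tested on simulated data. Alternatives were RLE factors, library totals, no filter, DESeq2 1.42.0, a replicate block, other sets of libraries, limma 3.58.1 (limma-trend) on log2(FPKM + pseudocount), the pseudocount being 1 or 0.1 and the lowest mean FPKM kept 0.5, rows summed by symbol, a 1.2-fold minimum (edgeR's glmTreat), members outside chromosomes 11, 14 and X, and each library left out. Chromosomes and lengths came from GENCODE M21 (GRCm38), whose IDs matched 87.4% of genes, and promoters from RefSeq (GRCm38.p6). No coordinates of the authors' build were used.

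Levels in every library are given for the 10 called members with the smallest p in each knockout comparison, for all E2F and cyclin E genes, and for members called in opposite directions. Rpa3 was added after its values were seen. From each other list at most 4 called genes with the smallest p in each comparison are named, and the value of Gata3 in Taf6l-KO was given beyond this rule. The range of library totals in each group is in the report, and the standard errors carry the precision of each value.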

Additional observations from a re-analysis of the deposited data

Results flagged for a closer look

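In 33 of the 47 members the effect of the Myc knockout differed from the mean effect of the Taf knockouts by the test of the difference itself (edgeR, adjusted p under 0.05). The values are Myc-KO effect minus mean Taf knockout effect on the log2 scale. In the MCM ring they were 0.24 for Mcm3, 0.30 for Mcm4, 0.26 for Mcm5, 0.30 for Mcm6 and 0.19 for Mcm7. Among the licensing genes they were 0.43 for Orc6, 0.23 for Cdc6 and 0.50 for Gmnn. The helicase activation genes gave 0.15 for Mcm10, 0.65 for Gins2, 0.32 for Gins3, 0.41 for Gins4, 0.35 for Cdc45, 0.43 for Cdc7 and 0.42 for Dbf4. Polymerase and primase genes gave 0.97 for Pola1, 0.53 for Pola2, 0.47 for Prim1, 0.26 for Prim2 and -0.24 for Pold2. For the clamp and lagging strand they were 0.52 for Pcna, 0.13 for Rfc1, 0.52 for Rfc3, 0.32 for Rfc5, 0.31 for Lig1, 0.24 for Rpa2 and 0.63 for Rpa3. The E2F genes gave -0.28 for E2f3, 0.38 for E2f4, 0.41 for E2f6 and 0.53 for E2f8, and the cyclin E genes -0.40 for Ccne1 and 0.77 for Ccne2. Of these calls, Mcm10, Rfc1, Mcm7, Pold2 and Gins3 were lost when single libraries were left out. Mcm10 kept its call in 7 of 24 alternatives, Rfc1 in 11, Mcm7 in 13, Pold2 in 15 and Gins3 in 21. The share of histone RNA and the scatter between replicates differed between the experiments, and their part in these differences was not tested.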

How the results depend on the processing

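With a 1.2-fold minimum (edgeR's glmTreat) 4 members were called in Taf5l-KO, 9 in Taf6l-KO, 4 in Myc-KO, 0 between Taf6l-KO and Taf5l-KO and 14 for the difference of effects. Over all genes the same test called 1346, 1675, 2418, 178 and 2847, in the same order. In Taf6l-KO 21 members were called with library totals and 21 on FPKM with either pseudocount. Over all genes 5917 were called with library totals, 3118 on log2(FPKM + 1) and 3124 on log2(FPKM + 0.1). Between Taf6l-KO and Taf5l-KO 10 members were called in DESeq2, 8 with all 15 libraries, 5 on log2(FPKM + 1) and 4 on log2(FPKM + 0.1). Over all genes these settings called 1842, 1647, 926 and 923. With single libraries left out, Taf5l-KO had 29 to 31 calls, Taf6l-KO 26 to 30 and Myc-KO 10 to 23, with 9 to 13 between Taf6l-KO and Taf5l-KO, and 29 to 36 for the difference of effects. E2f3 reversed on FPKM, at 0.539 and 0.548 in Taf6l-KO and at 0.030 and 0.031 in Myc-KO with pseudocounts of 1 and 0.1. Under the replicate block 31 members were called in Taf5l-KO, 31 in Taf6l-KO, 15 between them, 9 in Myc-KO and 29 for the difference of effects. Over all genes the calls were 5186, 5757, 2852, 3139 and 4974, in the same order. Same-numbered libraries correlated in their deviations at -0.077 to 0.092 in the Taf experiment and -0.571 to -0.161 in the Myc experiment. These values give no sign of pairing by number. Some libraries of unlike number did vary together: replicates 1 and 2 of Myc-KO correlated with replicate 3 of WT-Myc at 0.472 and 0.431. Replicate 3 of Myc-KO correlated with replicate 1 of WT-Myc at 0.411. The cause of the changes in these counts and of these correlations was not tested. In all alternatives other than the minimum fold 21 of 32 calls were kept in Taf5l-KO, 18 of 32 in Taf6l-KO, 7 of 19 in Myc-KO, 3 of 16 between Taf6l-KO and Taf5l-KO, and 23 of 33 for the difference. Fitting only the groups compared gives the same fit in the Myc experiment.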

Other observations

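The lengths implied by the ratio of deposited counts to FPKM were a median of 0.188 of the longest annotated coding transcript over the members (range 0.0539 to 0.936), and 36 of the 47 members lay under 0.5.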
